A study of Mus musculus with 2 samples.

Results

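The 7 genes described here are the miRNA genes of the Mir99-Mir100 and Mir125 clusters that have a row in the count tables: Mir99a, Mir99b, Mir100, Mir125a, Mir125b-1, Mir125b-2 and Gm25927. They were taken by name, through the Ensembl identifier of each row, out of 1973 genes in all. Gm25927 is included because its counts on the strand opposite to its annotation lie at Mirlet7e, the let-7 gene between Mir99b and Mir125a, which has no row of its own. The strand of those counts is thus part of the choice and is given as a description. The samples are 2 biological replicates of 1 group: stomachs of B6NCrl mouse embryos at 14.5 days of development, with no treatment and no mutant allele named in the labels. Each is described as a single stomach from a separate collection day, while the sex field of both names males and females together, so a pool cannot be told apart from a single embryo. No condition varied, and the only comparison the design allows between samples is that of replicate 1 with replicate 2, which cannot be told apart from the collection day.

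miRNAs are short RNAs that guide Argonaute proteins to messenger RNAs, mainly through the seed, bases 2 to 8 of the mature strand. The clusters join a miR-99 or miR-100 gene, a let-7 gene and a miR-125 gene, an arrangement that is old in animals. In Caenorhabditis elegans, lin-4, the relative of miR-125, and let-7 time the transitions between larval stages. In mammals let-7 and miR-125 repress Lin28a, whose product blocks the maturation of let-7, and miR-99 and miR-100 are known to repress Mtor and Igf1r, genes of growth signalling.

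The mature 5p strands fall into 3 seed groups, and they are printed because the counts below depend on which of these sequences occur at a single place. Capitals mark the seed, and the sequences are those of RefSeq on GRCm38.p6.
miR-99a-5p of Mir99a: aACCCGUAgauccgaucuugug
miR-100-5p of Mir100: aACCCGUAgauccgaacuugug
miR-99b-5p of Mir99b: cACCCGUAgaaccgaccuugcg
miR-125a-5p of Mir125a: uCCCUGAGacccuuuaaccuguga
miR-125b-5p of Mir125b-1 and of Mir125b-2: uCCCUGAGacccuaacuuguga
let-7e-5p of Mirlet7e: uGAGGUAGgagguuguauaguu

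With positions counted from 1 at the 5′ end, miR-99a-5p and miR-100-5p differ by the single substitution U16A, outside the seed. miR-99a-5p and miR-99b-5p differ by 4 substitutions, A1C, U11A, U16C and U21C, which also leave the seed alone. miR-125a-5p, with 24 bases, and miR-125b-5p, with 22, share a stretch of 13 bases from the 5′ end. No other miRNA precursor of GENCODE M21 holds the mature strands of Mir99a, Mir99b, Mir100, Mir125a or Mirlet7e. miR-125b-5p is the exception, since the precursors of Mir125b-1 and Mir125b-2 both hold it and share 24 bases in a row. The strands that tell these precursors apart are on the 3p side, where the lines below differ by 5 substitutions (G3A, G4A, U7C, C11U and G20C).
miR-125b-1-3p of Mir125b-1: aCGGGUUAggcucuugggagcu
miR-125b-2-3p of Mir125b-2: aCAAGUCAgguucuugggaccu

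Levels are counts per 1000000 gene counts (CPM), from totals of 5004548 counts in replicate 1 and 4679914 in replicate 2. They are shares of the miRNA reads that map to 1 gene, and fewer cells of a type and less RNA per cell cannot be told apart in whole tissue. Each count is 1 short read, so no scaling for gene length applies. Reads that map to several places, 27.8% of all reads in replicate 1 and 27.4% in replicate 2, were counted for no gene. Of the miRNAs that mark tissues of the stomach, Mir143 and Mir145a of smooth muscle totalled 155329 ± 12469 CPM (SD, n = 2), the 5 genes of the epithelial Mir200 family 41460.4 ± 30.7 CPM, and Mir205 and Mir203 of stratified epithelium 16628 ± 0.13 CPM. The small SDs of these epithelial totals hide genes that differed in opposite directions. The log2 ratio of replicate 1 over replicate 2 was 0.20 for Mir203 and -0.14 for Mir205. In the Mir200 family it ran from -0.16 (Mir200c) to 0.096 (Mir429). Mir122 of liver stood at 61.3 ± 6.41 CPM, and Mir206 of striated muscle had 79 counts in replicate 1 and 46 in replicate 2, or 12.8 ± 4.21 CPM. Mir133a-1 and Mir133a-2 of striated muscle and Mir124a-1 and Mir124a-2 of neurons had 0 counts, and Mir124a-3 had 1 count in replicate 1 and 0 in replicate 2. The Mir133a genes share 31 bases in a row with each other and the Mir124a genes share 32, so their reads can map to several places and a count of 0 says nothing of these tissues.

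All 7 genes had 10 or more counts in both libraries, and together they held 11.5% of gene counts in replicate 1 and 11.2% in replicate 2. Mir99a alone made up 8.06% of replicate 1 and 7.53% of replicate 2 (exact 95% binomial intervals 8.03 to 8.08% and 7.51 to 7.56%, counting error only) and was the second most abundant gene of each library. The other 6 members held 3.44% and 3.63%. By mean CPM the members ranked between 2 and 109 among all genes.

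**Figure D1:**
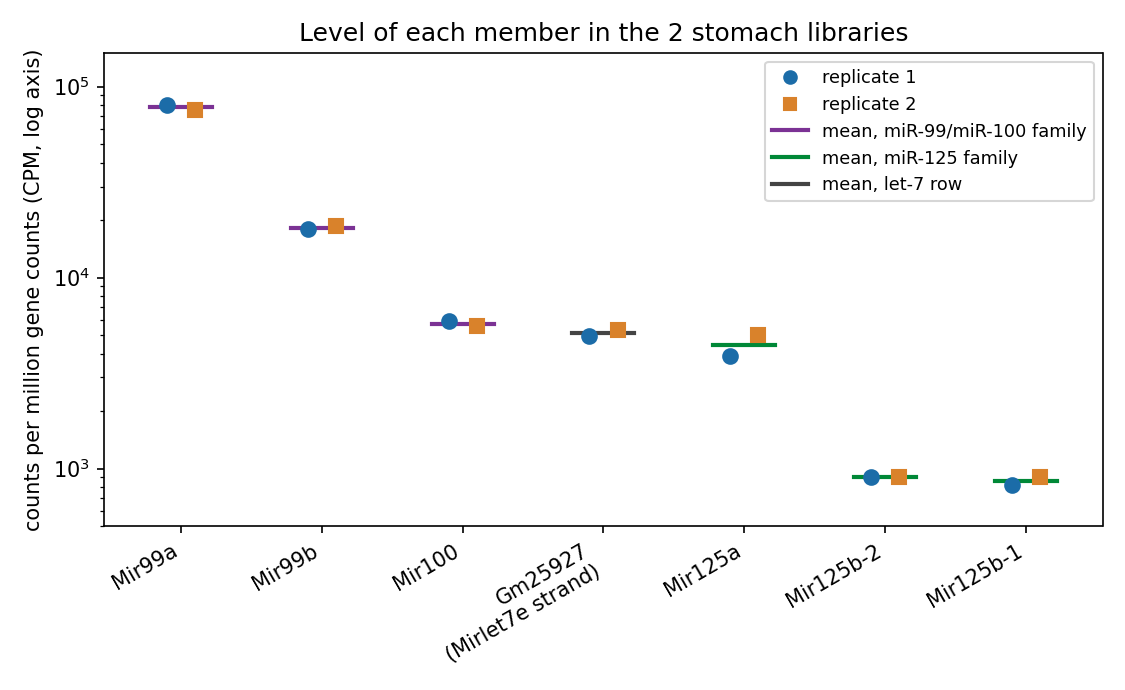
Level of each member in CPM (log axis) in replicate 1 (circles) and replicate 2 (squares), ordered by the mean of both (lines, coloured by seed group). Mir99a lies at 80573 and 75345 CPM, far above the others, and the 2 Mir125b genes lie together between 821 and 909 CPM. Reads that map equally well to both Mir125b precursors were counted for neither.

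The miR-99/miR-100 group held most of the counts. Mir99a (ENSMUSG00000065530.1, chr16:77598936-77599000, plus strand, in an intron of the non-coding host transcript Mir99ahg) had 80573 CPM in replicate 1 and 75345 CPM in replicate 2. Mir99b (ENSMUSG00000065396.1, chr17:17830188-17830257, plus strand, in an intron of the protein-coding gene Spaca6) had 17887 CPM in replicate 1 and 18619 CPM in replicate 2. Mir100 (ENSMUSG00000093011.1, chr9:41531425-41531504, plus strand, in introns of the non-coding genes 3110039I08Rik and Gm49317) had 5917 CPM in replicate 1 and 5580 CPM in replicate 2. The 3 genes kept the same order in both libraries, and the gaps between them were many times the spread between replicates.

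Mir99a exceeded Mir99b 4.50-fold in replicate 1 and 4.05-fold in replicate 2, a mean log2 ratio of 2.09 ± 0.11 (SD, n = 2). It exceeded Mir100, from which its 5p strand differs by U16A alone, by a log2 ratio of 3.76 ± 0.0087, or 13.6-fold in replicate 1 and 13.5-fold in replicate 2. The seed group totalled 101960 ± 3417 CPM (SD, n = 2), of which Mir99a supplied 76.4% ± 1.06, Mir99b 17.9% ± 1.11 and Mir100 5.64% ± 0.044. An exact unpaired test of 2 values against 2 cannot go below p = 0.333, and pairing by library goes no lower. These ratios, taken within each library, are therefore given with their spread alone. A bias of ligation or amplification towards some sequences, shared by the libraries, would leave no trace in the SD.

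As counted, the miR-125 group was far lower. Mir125a (ENSMUSG00000065479.1, chr17:17830812-17830879, plus strand, within Spaca6 and overlapping an exon of at least 1 of its annotated transcripts) had 3876 CPM in replicate 1 and 5005 CPM in replicate 2. Mir125b-2 (ENSMUSG00000065472.1, chr16:77646273-77646343, plus strand, in an intron of Mir99ahg) had 903 CPM in both, from 4519 counts in replicate 1 and 4224 in replicate 2. Mir125b-1 (ENSMUSG00000093354.1, chr9:41581926-41582002, plus strand, in introns of 3110039I08Rik and Gm49317 and in the exon of the small transcript Gm28119) had 821 CPM in replicate 1 and 909 CPM in replicate 2. The 2 Mir125b genes changed places between the libraries, and their log2 ratio, Mir125b-2 over Mir125b-1, was 0.063 ± 0.10, within the spread between replicates.

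The miR-125 group totalled 6208 ± 860 CPM, of which Mir125a supplied 71.3% ± 2.98. Mir125a exceeded the sum of the Mir125b genes, 1768 ± 61.8 CPM, by a log2 ratio of 1.32 ± 0.21, which is 2.25-fold in replicate 1 and 2.76-fold in replicate 2. That ratio and the group total leave out every read that maps equally well to both Mir125b precursors, as the printed 5p strand does over its whole length. The reads that map to several places equal 486967 per 1000000 gene counts in replicate 1 and 483700 in replicate 2, and the tables do not divide them by sequence, so the true level of miR-125b is not given by these files. As counted, the miR-99/miR-100 group exceeded the miR-125 group by a log2 ratio of 4.04 ± 0.25, or 18.6-fold in replicate 1 and 14.6-fold in replicate 2.

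Gm25927 (ENSMUSG00000092799.1, chr17:17830343-17830459, minus strand) had 24835 counts in replicate 1 and 24882 in replicate 2, and every one lay on the strand opposite to its annotation. That strand is the strand of Mirlet7e (chr17:17830352-17830444, plus strand, in an intron of Spaca6), whose 93 bases lie wholly inside the 117 bases of Gm25927. This strand was used to choose the gene. The other 6 members showed the reverse pattern, with 0 counts opposite to their annotation in both libraries. The row of Gm25927 is given here as the plus-strand signal at Mirlet7e, 4962 CPM in replicate 1 and 5317 CPM in replicate 2. Of the genes with 10 or more counts in both libraries, 10 had more opposite than own-strand counts in both, and Gm25927 ranked number 3 of these by mean CPM.

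Read by mean level as counted, the order was Mir99a, Mir99b, Mir100, Gm25927, Mir125a, Mir125b-2 and Mir125b-1. Since reads that map to both Mir125b precursors are left out, the true place of miR-125b in it is not given. The values of Mir100 and Gm25927 did not overlap between libraries, although their log2 ratio was only 0.16 ± 0.13. Those of Gm25927 and Mir125a did overlap (log2 ratio 0.22 ± 0.19), as did those of Mir125b-2 and Mir125b-1. The other steps down this order were wider than the spread of the genes on either side.

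The genes form 3 loci, each with its miR-99 or miR-100 gene first, its let-7 gene in the middle and its miR-125 gene last on the plus strand. The Mir99b locus is compact, with 94 bases between the Mir99b and Mirlet7e precursors and 367 between Mirlet7e and Mir125a. The others are spread out. Mir99a is followed by Mirlet7c-1 after 656 bases and by Mir125b-2 after 46522 more, and Mir100 by Mirlet7a-2 after 5211 bases and by Mir125b-1 after 45114 more.

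**Figure D2:**
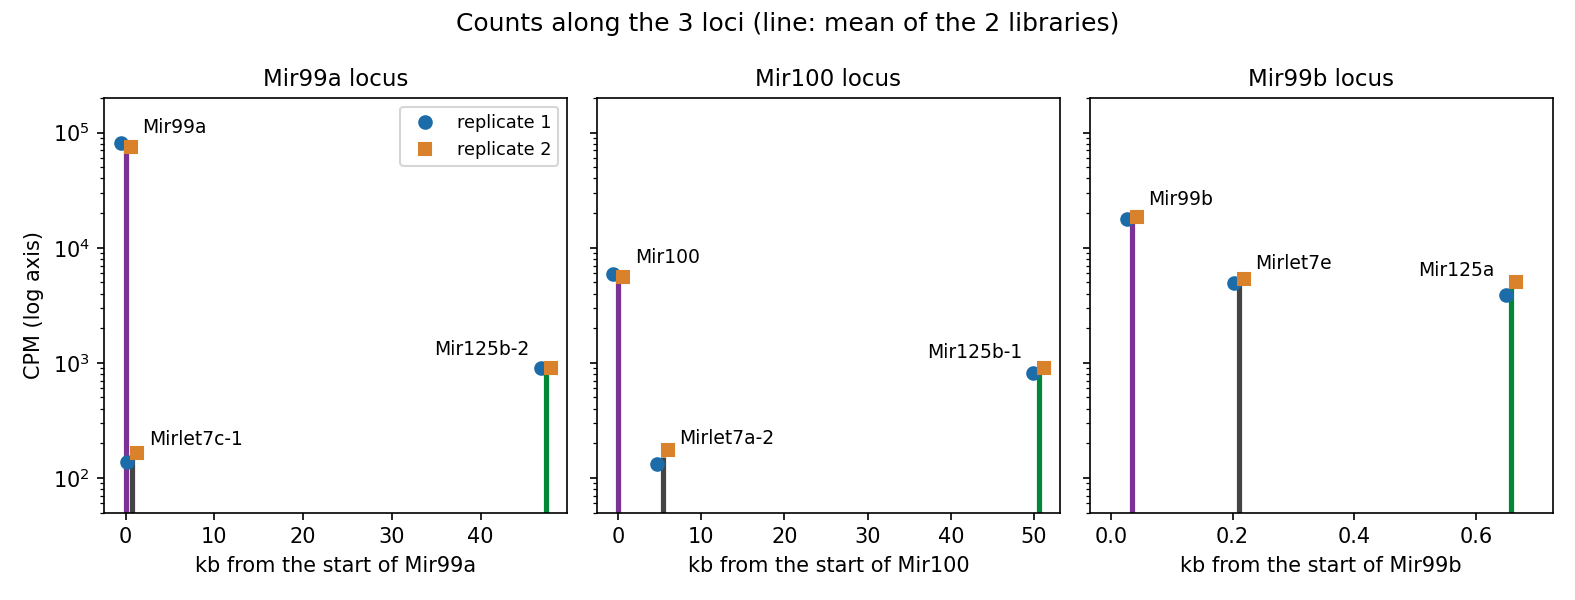
Level in CPM (log axis) against distance in kb from the start of the first precursor, for the 3 loci, with replicate 1 as circles, replicate 2 as squares and the mean as a line. As counted, the first gene is the highest in each locus. Mirlet7e at 4962 and 5317 CPM stands far above Mirlet7c-1 and Mirlet7a-2, none of whose values exceeds 174 CPM. Mirlet7c-1 and Mirlet7a-2 each share 23 bases in a row with another let-7 precursor, and the Mir125b precursors share 24 with each other. Reads that map to several places were counted for no gene, so the order shown is of counts alone.

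By total, the Mir99a locus held 79013 ± 3677 CPM, the Mir99b locus 27833 ± 1567 CPM and the Mir100 locus 6766 ± 146 CPM (SD, n = 2). The log2 ratio of the Mir99a locus over the Mir99b locus was 1.51 ± 0.15, and that of the Mir99b locus over the Mir100 locus 2.04 ± 0.11. These totals leave out reads that map to several places, which need not weigh equally on the loci. In the Mir99a and Mir100 loci the let-7 and miR-125 genes share 23 or 24 bases in a row with other precursors. In the Mir99b locus the longest such stretch is 17 bases. The part this has in the ratios between loci was not tested. As counted, all loci had their miR-99 or miR-100 gene on top, but the make-up below it differed from locus to locus. In the Mir99b locus, Mir99b held 65.6% ± 1.83 of the counts, Mirlet7e 18.5% ± 0.14 and Mir125a 15.9% ± 1.97. In the Mir100 locus, Mir100 held 84.9% ± 1.69, Mirlet7a-2 2.26% ± 0.50 and Mir125b-1 12.8% ± 1.19. In the Mir99a locus, Mir99a held 98.7% ± 0.087, Mirlet7c-1 0.192% ± 0.034 and Mir125b-2 1.14% ± 0.053.

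**Figure D3:**
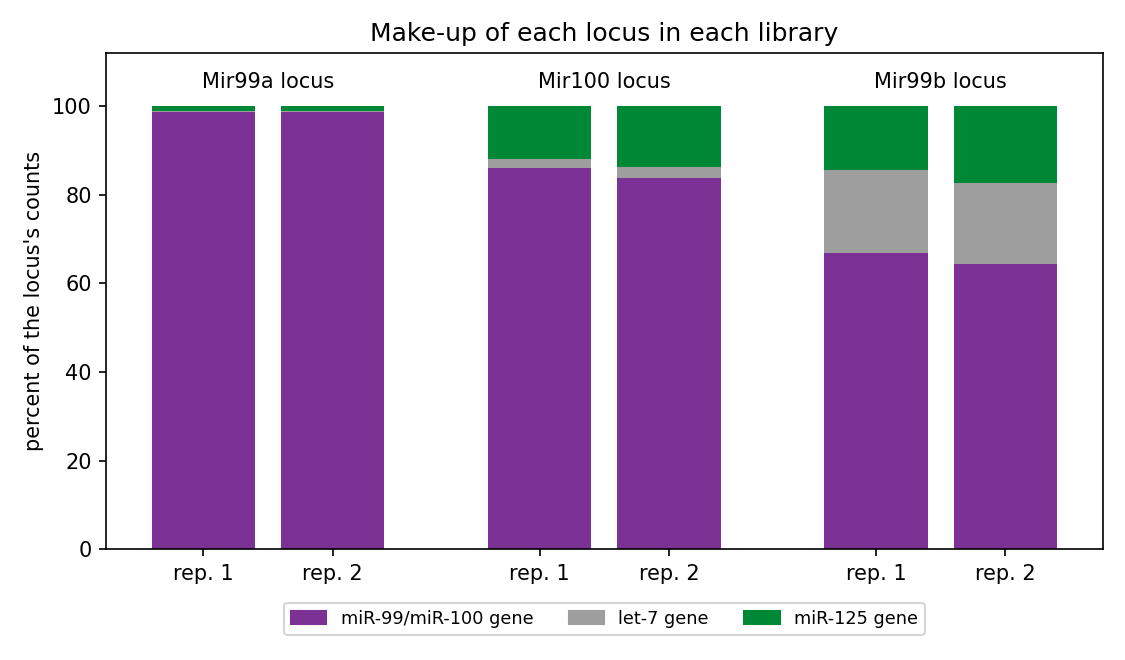
Percent of each locus's counts from its miR-99 or miR-100 gene, its let-7 gene and its miR-125 gene, in replicate 1 and replicate 2. The first gene holds 98.7% and 98.6% in the Mir99a locus, 86.1% and 83.7% in the Mir100 locus and 66.9% and 64.3% in the Mir99b locus. Reads that map to several places, such as those common to both Mir125b precursors, are left out of these shares.

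The step from the first to the last gene also differed from locus to locus. Mir99b exceeded Mir125a by a log2 ratio of 2.05 ± 0.22 and Mir100 exceeded Mir125b-1 by 2.73 ± 0.16, while Mir99a exceeded Mir125b-2 by 6.43 ± 0.068, which is 89.2-fold in replicate 1 and 83.5-fold in replicate 2. For the let-7 genes, Mir99b exceeded Mirlet7e by 1.83 ± 0.029, Mir100 exceeded Mirlet7a-2 by 5.25 ± 0.35 and Mir99a exceeded Mirlet7c-1 by 9.02 ± 0.26. Mirlet7c-1 had 137 CPM in replicate 1 and 165 CPM in replicate 2, and Mirlet7a-2 had 131 CPM in replicate 1 and 174 CPM in replicate 2. Mirlet7c-1 shares 23 bases in a row with Mirlet7c-2 and Mirlet7a-2 shares 23 with Mirlet7a-1, as the Mir125b precursors share 24. The longest such stretch is 14 bases for Mir125a and 17 for Mirlet7e, and Mir99a and Mir100 share 16 with each other. The part that uncounted shared reads have in these differences of make-up was not tested.

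Sequence relatives outside the loci were set beside the members. Among the mature strands in the RefSeq table, the seed of miR-99a-5p occurs in the 3 members alone, whereas the seed of miR-125b-5p also occurs in miR-351-5p, miR-6367 and miR-6394. Mir6367 and Mir6394, named because that search found them, had 0 counts in both libraries. By counting error alone, a count of 0 leaves room for 0.599 CPM in replicate 1 and for 0.641 CPM in replicate 2. Shared sequence was not examined for Mir6367 and Mir6394, so reads that map to several places can be missing from their counts. The relatives that were counted are shown with the bases in the seed position in capitals.
miR-351-5p of Mir351: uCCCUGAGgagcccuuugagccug
miR-670-5p of Mir670: aUCCCUGAguguauguggugaa
miR-10a-5p of Mir10a: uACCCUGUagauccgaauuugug
miR-10b-5p of Mir10b: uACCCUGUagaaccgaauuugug

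Mir351, an X-linked gene, had 4176 CPM in replicate 1 and 4890 CPM in replicate 2, a level that overlapped that of Mir125a. As counted, it amounted to 0.746 of the summed miR-125 group in replicate 1 and 0.717 in replicate 2. With Mir351 the gene counts of the group totalled 10741 ± 1366 CPM. That is no total of reads with this seed, since the counts do not divide 5p from 3p strands. The ratio and the total also leave out reads that map equally well to both Mir125b precursors. Mir670, whose 5p strand holds the same 7 bases at positions 3 to 9, had 55 counts in replicate 1 and 44 in replicate 2, or 10.2 ± 1.12 CPM. Mir10a and Mir10b, from the Hox clusters, have 5p strands without the seed of the miR-99 group. The longest stretch that miR-10a-5p shares is 10 bases with miR-99a-5p and 11 with miR-100-5p, while miR-10b-5p shares 5 bases with each of them and 10 with miR-99b-5p. Mir99a exceeded Mir10a, at 44729 ± 372 CPM, 1.81-fold in replicate 1 and 1.67-fold in replicate 2. Mir10b, at 3300.2 ± 213 CPM, stood below Mir100 by a log2 ratio of -0.80 ± 0.15.

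For each gene, an exact binomial test conditional on its total count then set replicate 1 against replicate 2, which compares these libraries and no conditions. Of the 7 members, 6 passed an adjusted p of 0.05 (Benjamini-Hochberg over 361 genes), 2 of them higher in replicate 1 and 4 lower by totals. Among all 361 genes tested 42.1% passed, 17.5% higher and 24.7% lower in replicate 1. Members have deep counts, and among the 127 genes of 500 CPM or more, a limit chosen after values were seen, 72.4% passed, and the members' count is read against that share. The median absolute log2 ratio was 0.097 for the members, 0.10 for those 127 genes and 0.16 for all genes tested. The median log2 ratio itself was -0.058 for the members and -0.035 for all genes tested.

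Mir125a differed most among the members, with 19397 counts in replicate 1 and 23423 in replicate 2, a log2 ratio of -0.37 (adjusted p = 4.62e-152 in the exact test, 95% interval -0.40 to -0.34). Of the 127 genes, 7 differed by that much or more, Mir125a included. Its locus neighbours differed less: Gm25927 had a log2 ratio of -0.099 and Mir99b of -0.058, although all 3 lie in the compact locus within Spaca6. The ratio of Mir99b turned to 0.032 with DESeq2's size factors, so no direction can be given for it.

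Mir99a was higher in replicate 1 by a log2 ratio of 0.097 (adjusted p = 1.04e-184 in the exact test, 95% interval 0.090 to 0.10). Mir100 was higher by 0.084 (adjusted p = 2.92e-11 in the exact test, 95% interval 0.060 to 0.11). Mir125b-1 was lower in replicate 1 by a log2 ratio of -0.15 (95% interval -0.21 to -0.084). Mir125b-2, the member that did not pass, had a log2 ratio of 0.00064 (adjusted p = 1 in the exact test), and its 95% interval of -0.060 to 0.061 leaves room for differences of that size. These ratios moved by 0.053 with edgeR's TMM factors and by 0.090 with DESeq2's size factors, and Mir99a, Mir100, Mir125a, Gm25927 and Mir125b-1 kept their direction under each. Gm25927 and Mir125b-1 no longer passed under the size factors. The split over all genes also depended on scaling: 63 higher and 89 lower in replicate 1 by totals, 94 and 74 by TMM factors, 115 and 58 by size factors, and 92 and 74 by totals without the 5 most abundant genes.

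**Figure D4:**
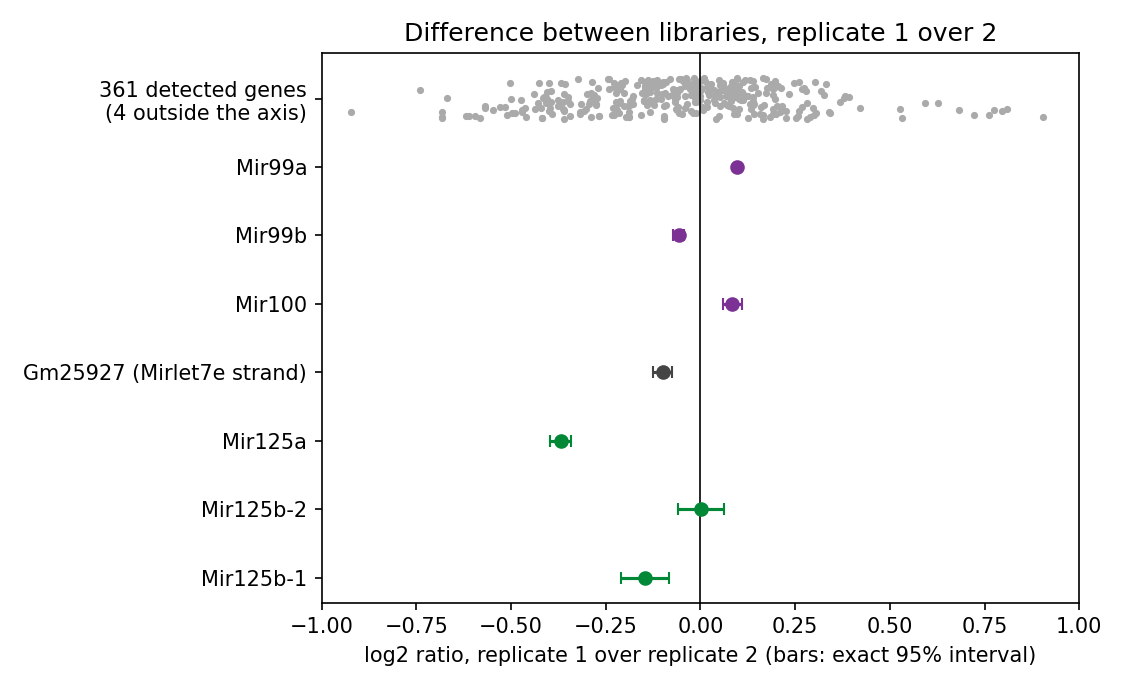
Log2 ratio of replicate 1 over replicate 2 for each member, with exact 95% intervals as bars, under all 361 genes tested as grey dots (spread vertically by count, 4 beyond the axis). Mir125a at -0.37 lies farthest from 0 among the members, and the other 6 lie within 0.15 of it on the totals scaling, where Mir99b is the member whose sign turns with DESeq2's size factors.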

How the data were processed

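MicroRNA sequencing libraries were made from total RNA with a size selection below 30 nt, per the labels. The authors deposited 1 table of read counts per library. Per the text that accompanies the tables, they were derived from an alignment on mm10 with GENCODE M4. Neither aligner nor counter is given in the sources used here. The deposited counts come in 3 columns, and for every gene the 2 strand columns add up to the first, which was used. The strand columns carry no header. The one that holds 97.2% of gene counts in replicate 1 and 97.3% in replicate 2 was taken as the own strand. Lines that name no gene were left out of totals and tests: unmapped reads, 12.5% of reads in replicate 1 and 13.5% in replicate 2, reads at several places, 27.8% and 27.4%, reads outside genes, 2.50% and 2.32%, and 0 ambiguous reads.

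Symbols, coordinates and hosts came from GENCODE M21 on GRCm38 (mm10) by identifier without version, for 1894 of 1973 genes. Mature sequences came from the RefSeq table on GRCm38.p6. Shared precursor stretches of 12 bases or more were searched on both strands, and precursors that overlap in the genome were not set against each other.

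CPM used the total over genes, and SDs cover 2 libraries. Reads carry no molecular identifiers, so intervals and floors (3 counts, 0.599 CPM in replicate 1 and 0.641 CPM in replicate 2) cover counting error only. Genes with 10 or more counts in both libraries, 361, entered an exact conditional binomial test of replicate 1 over replicate 2 (two-sided, SciPy 1.17.1). The p-values were adjusted by Benjamini-Hochberg and measure counting error only. The test was tried on simulated counts with set fold changes and sampling noise alone, so that trial does not cover further variation between libraries. A chi-square of 75.8 per degree of freedom (360 degrees of freedom) showed that the libraries differ by more than sampling noise, and they were kept as 2 samples. Scaling factors came from edgeR 4.0.16 and DESeq2 1.42.0. Alternatives covered the strand column, the denominator, scaling, the count minimum, the let-7 genes, summed Mir125b genes and each library left out.

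The members, lists and tests were chosen with earlier results of these data known. Genes named are the 7 members, their let-7 neighbours, the relatives Mir351, Mir670, Mir10a and Mir10b, the genes next above and below each member by mean CPM, and the tissue markers, whose other lists stood at 5115 CPM for Mir375, 20389 CPM for endothelium, 180 CPM for erythroid cells, 506 CPM for leukocytes, 4.73 CPM for pancreas, 12.8 CPM for striated muscle (all of it Mir206) and 0.0999 CPM for neurons. The Mir133a and Mir124a genes of these last lists share long stretches, so their totals leave out reads at several places.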

Additional observations from a re-analysis of the deposited data

How the results depend on the processing

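Levels fell with a wider denominator. With all reads in it the totals were 44991 CPM for the Mir99a locus, 15844 for the Mir99b locus, 3853 for the Mir100 locus, 58056 for the miR-99/miR-100 group and 3533 for the miR-125 group. With gene counts plus reads at several places they were 53193, 18739, 4555, 68643 and 4180 CPM in the same order. Ratios between members do not depend on the denominator. In the own-strand setting Gm25927 kept its opposite-strand counts (5257 CPM), since it has 0 counts on its own strand. The other members have the same counts in that column, and the levels of all members rose with the smaller total. The Mir99a locus stood there at 80815 CPM, the Mir99b locus at 28467 and the Mir100 locus at 6921. Without their let-7 genes the Mir99b locus held 22693 CPM and the Mir100 locus 6614 CPM, and the log2 ratios between loci became 1.80 (Mir99a over Mir99b) and 1.78 (Mir99b over Mir100). Leaving out each library in turn gave a log2 ratio of Mir125b-2 over Mir125b-1 of -0.010 to 0.14, so its sign rests on replicate 1, and the other 23 log2 ratios kept their sign.

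Between libraries, 145 to 173 genes passed under the own-strand setting and the other scalings and count minimums, against 152. When an absolute log2 ratio of 1 was also required, 4 passed, none of them a member. The log2 ratio of Mir99b was 0.032 with DESeq2's size factors and did not pass with TMM factors or without the 5 most abundant genes. Mir125b-1 and Mir125b-2 summed gave -0.071 (adjusted p = 0.00359, exact binomial test). Mir125b-2 passed with size factors, at 0.091. No paired contrast of conditions was possible because the labels give 1 group. Genes were paired by library only in the log2 ratios. Depth did not limit the members, the lowest of which had 4110 counts, but shared sequence limits Mir125b-1, Mir125b-2, Mirlet7c-1 and Mirlet7a-2.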

Other observations

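With 2 samples of 1 group no likeness of pattern can be measured, so the genes nearest to each member in mean CPM are given as those most like it in level. Mir99a stood between Mir143, at 152490.3 ± 12395 CPM, and Mir335, at 53850 ± 1002 CPM, and kept that place in both libraries. Mir99b stood between Mir429 (19907 ± 932 CPM) and Mir30e (18109 ± 2864 CPM), and changed places with Mir30e between libraries. Mir100 stood between Gm25301 (5865 ± 320 CPM) and Gm24321 (5694 ± 405 CPM), with the second changing places. Gm25927 stood between Mir98, itself a let-7 relative, at 5148 ± 45.0 CPM, and Mir431 at 5139 ± 759 CPM, and changed places with both. Mir125a stood between Mir351 and Mir182 (4414 ± 916 CPM) and changed places with both, so the gene next above Mir125a in level is also the X-linked gene that carries its seed. Mir125b-2 lay below Mir148a (1097 ± 34.8 CPM) in both libraries and changed places with Mir467c (903 ± 15.8 CPM). Mir125b-1 changed places with both Mir503 (883 ± 29.3 CPM) and Mir181b-2 (863 ± 307 CPM).

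The let-7 genes without unique 5p strands also differed between libraries, in a test that 42.1% of all 361 genes tested passed. The ratios below are by the totals scaling alone. Mirlet7c-1 had 685 counts in replicate 1 and 774 in replicate 2, a log2 ratio of -0.27 (adjusted p = 0.00105, exact binomial test). Mirlet7a-2 had 656 counts in replicate 1 and 814 in replicate 2, a log2 ratio of -0.41 (adjusted p = 3.20e-07, exact binomial test). Mir351 had a log2 ratio of -0.23, of the same sign as Mir125a, and the exact 95% intervals of Mir351 (-0.26 to -0.20) and Mir125a (-0.40 to -0.34) did not overlap.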
